A study of Mus musculus with 18 samples.

Results

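The cytochrome P450 genes of families 1, 2 and 3 were followed across 18 mouse liver RNA libraries. Members were the rows of the gene count table whose Ensembl identifier has a symbol that starts with Cyp1, Cyp2 or Cyp3 followed by a subfamily letter and a number, without pseudogene names, and with at least 10 counts over the 18 libraries. Of 37620 rows, 58 carried such a symbol, 7 of these were under 10 counts, and 51 were members. They fall into 14 subfamilies, of which Cyp2c with 13 genes and Cyp3a with 9 are the largest. Enough counts for a test were found for 47 of the 51, and Cyp2b19, Cyp2j7, Cyp2j8 and Cyp2j13 were too low.

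All mice were female, and the strain is not given in the labels. The young group held 6 mice 7 weeks old with no treatment. The old vehicle group held 6 mice 24 months old given saline, and the old ouabain group 6 mice of the same age given ouabain at 1 mg/kg. Ouabain, a cardiac glycoside, inhibits the sodium pump (Na,K-ATPase). The old mice came from a cohort of 16 that began the course at 21 to 22 months, with treatment on 4 occasions in a week, 2 weeks of rest between rounds and 12 weeks in all, and were culled 3 days after the final round. Age and handling differ together between the young mice and both old groups.

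Cytochromes P450 are heme enzymes of the endoplasmic reticulum that insert an oxygen atom into lipophilic substrates, with electrons passed from P450 oxidoreductase. Families 1, 2 and 3 handle drugs, plant toxins, steroids, retinoids and polyunsaturated fatty acids, and hepatocytes are their main site. In rodent liver many of them differ between the sexes under the pulsed or steady pattern of growth hormone, many lie in the pericentral zone of the lobule, and several are induced by ligands of the nuclear receptors CAR and PXR or of the aryl hydrocarbon receptor (AhR).

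The promoters of 4 Cyp3a genes are shown because these genes, although neighbours with closely related starts, moved in opposite directions with age. The windows run from 130 bases before to 20 bases after the annotated start of each gene in RefSeq (GRCm38.p6, minus strand), at chr5:145469704-145469853 for Cyp3a16, chr5:145720117-145720266 for Cyp3a41a, chr5:145805855-145806004 for Cyp3a44 and chr5:145879835-145879984 for Cyp3a11. Capitals mark matches to CAAAGTCCA, a form of the binding site of the hepatocyte factor HNF4, and to ATCAAT, the core bound by HNF6.
Cyp3a16: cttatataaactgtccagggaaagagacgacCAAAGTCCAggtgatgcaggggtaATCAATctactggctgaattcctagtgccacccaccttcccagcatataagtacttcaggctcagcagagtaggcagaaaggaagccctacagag
Cyp3a41a: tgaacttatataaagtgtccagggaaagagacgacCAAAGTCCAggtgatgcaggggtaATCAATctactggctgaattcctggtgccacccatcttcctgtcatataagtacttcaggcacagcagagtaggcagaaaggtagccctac
Cyp3a44: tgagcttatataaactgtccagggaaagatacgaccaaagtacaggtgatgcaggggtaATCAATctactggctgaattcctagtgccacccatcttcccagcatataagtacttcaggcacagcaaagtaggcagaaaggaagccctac
Cyp3a11: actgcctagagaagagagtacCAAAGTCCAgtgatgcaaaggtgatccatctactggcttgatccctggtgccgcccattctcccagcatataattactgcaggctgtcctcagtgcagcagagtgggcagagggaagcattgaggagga
Over the 300-base promoters, Cyp3a16, Cyp3a41a, Cyp3a41b and Cyp3a44 were 92.0% to 97.3% identical in their 6 pairs, and Cyp3a11 was 79.2% to 82.2% identical to these 4. On either strand CAAAGTCCA was found in 9 of the 48 promoters of 45 members, against 0.475% of all 32851 promoters in the table. It was in Cyp3a11, Cyp3a16, Cyp3a41a and Cyp3a41b, and not in the Cyp3a44 window. The shorter CAAAGT was in Cyp3a44 at the same place as in Cyp3a41a, 95 bases before the start. ATCAAT was in 12 of the 48 member promoters, against 7.54% of all, and was in all 4 of the closely related genes but not in the Cyp3a11 window. TTCNNNGAA, the palindrome bound by STAT5, was in 0 of the 48 and in 8.30% of all. TGTTTAC, a core bound by FOXA factors, was in 9 of the 48 and in 3.65% of all, with Cyp3a11 and the 4 closely related genes among the 9. Many member promoters are near copies of one another, so these counts are not of independent promoters. Cyp2c40, Cyp2c67, Cyp2c68 and Cyp2c69, among those with CAAAGTCCA and with ATCAAT, were 91.6% to 98.9% identical in pairs over aligned bases. The 9 promoters with TGTTTAC belong to 8 members. Further patterns were searched and are not given. The motifs were searched after the expression of these genes was known, and a match is a description of letters only. Promoters of Cyp2c23, Cyp2c54, Cyp2d22, Cyp2g1, Cyp2j7 and Cyp2u1 were not analysed here.

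Library totals were 4201251 to 11113307 counts, with old ouabain replicate 5 the shallowest. Members held 2.02% ± 0.165 of the counts in young livers, 2.27% ± 0.214 in old vehicle livers and 2.18% ± 0.0871 in old ouabain livers (SD, n = 6 each). Levels are given as CPM, read counts relative to the total of the library after TMM scaling between libraries. Hepatocyte markers summed to 105145 to 155133 CPM in young, 94249 to 142483 in vehicle and 105433 to 131106 in ouabain livers. Of 3 lung markers, Sftpc and Sftpb had no count in any library, and Scgb1a1 was found in ouabain replicate 4 alone (0.109 CPM). Sums of 3 intestine markers were 39.0 to 65.4 CPM in young, 15.4 to 117 in vehicle (highest in replicate 6) and 35.6 to 56.0 in ouabain livers. Sums of 4 kidney or adrenal markers were 0.432 to 1.72, 0.863 to 3.28 and 0.825 to 2.55 CPM. In whole liver, fewer cells of a type and less RNA per cell cannot be told apart.

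A gene was called changed at an adjusted p below 0.05 in edgeR's quasi-likelihood test over all 14226 genes tested. From young to old vehicle livers, 27 of the 47 tested members changed, of which 12 rose and 15 fell. That is 57.4% of the tested members, beside 19.2% of all genes tested, 10.9% rising and 8.32% falling. Between old ouabain and old vehicle livers 6 members changed, 4 up and 2 down, which is 12.8% beside 1.84% of all genes, 0.991% rising and 0.851% falling. Between old ouabain and young livers 8 rose and 0 fell, which is 17% beside 1.12% of all genes, 0.738% rising and 0.387% falling. At an unadjusted p below 0.05 there were 32, 23 and 18 members in the same order. With age, the libraries of the groups did not overlap for 15 members, 8 higher and 7 lower in all vehicle livers, which was the case for 7.19% of all genes, 4.59% higher and 2.6% lower. Between ouabain and young livers this held for 10 members, 7 higher and 3 lower, beside 2.19% of all genes, 1.48% higher and 0.717% lower, and between ouabain and vehicle livers for 3, 2 higher and 1 lower, beside 2.05%, 1.12% and 0.928%. The median absolute log2 fold change of the members was 0.60 with age, 0.33 with ouabain and 0.33 between ouabain and young livers, against 0.19, 0.16 and 0.14 for all genes tested. The 3 comparisons share groups in pairs, so the same vehicle values enter the comparisons with young and with ouabain livers, with opposite signs.

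**Figure D1:**
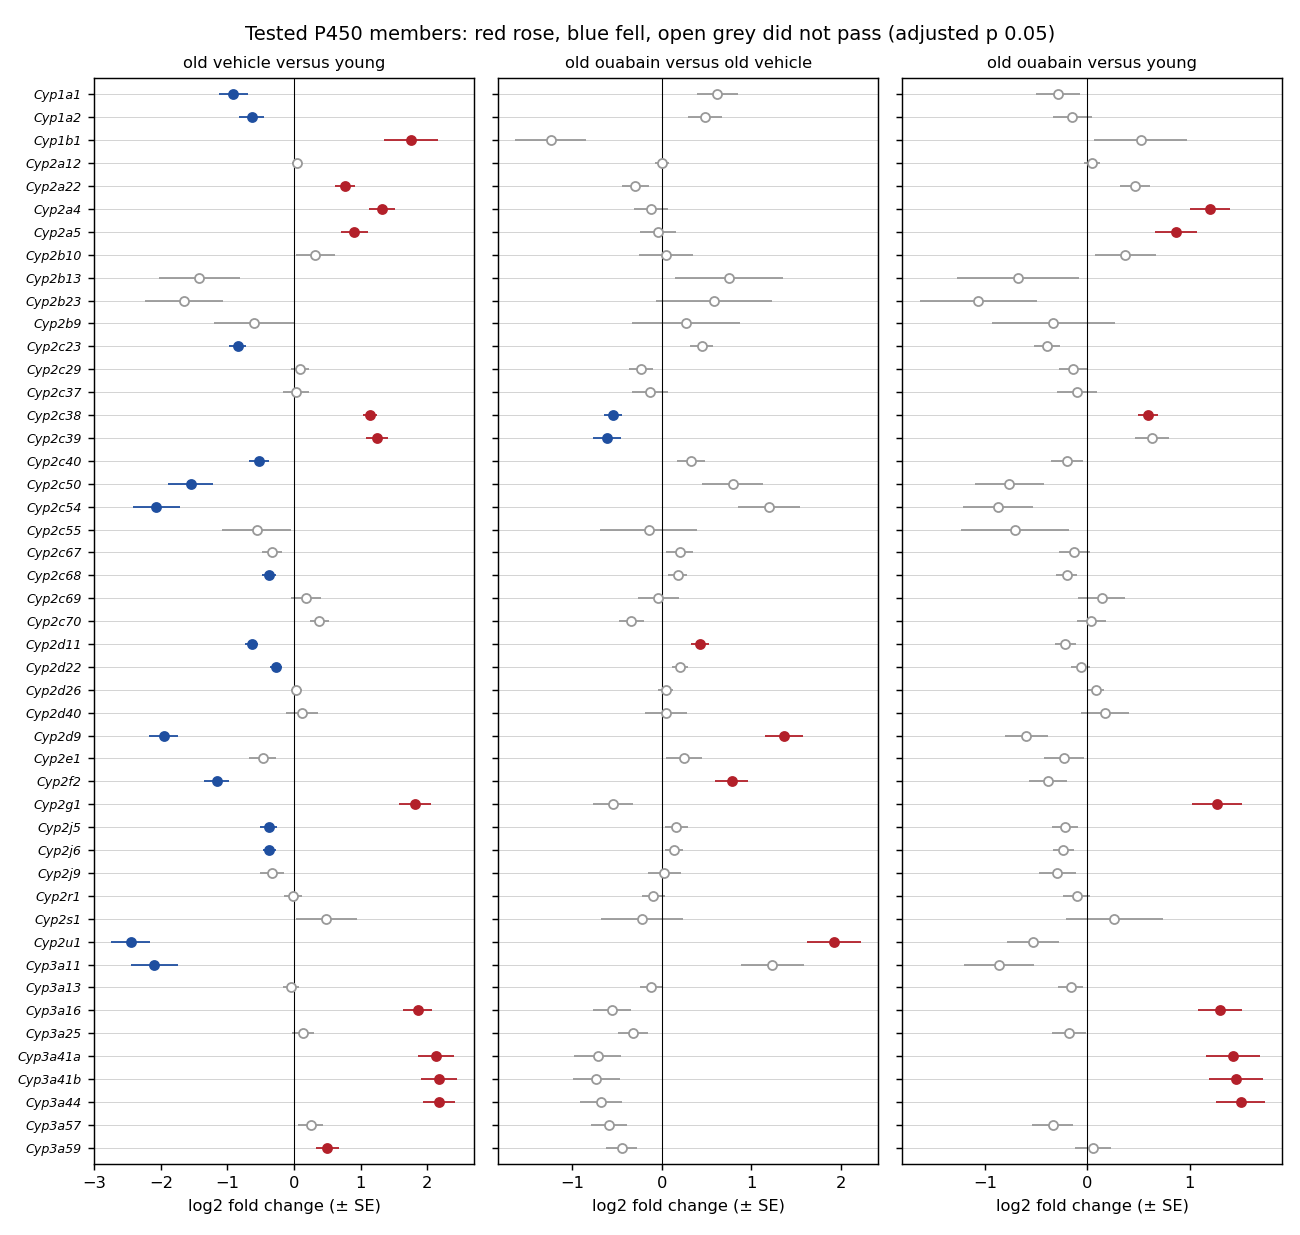
Log2 fold change with its approximate standard error for the 47 tested members, 1 row a gene, in the 3 comparisons (x axis, log2 scale). Filled red points rose and filled blue points fell at an adjusted p below 0.05, and open grey points did not pass. The left panel holds 27 filled points, the middle 6 and the right 8.

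The Cyp3a genes oxidise a wide range of drugs and steroids, and with age their members moved in opposite directions. Cyp3a11, the main drug- and testosterone-oxidising Cyp3a of adult mouse liver and a PXR target, fell 4.28-fold from young to old vehicle livers. Cyp3a41a, Cyp3a41b and Cyp3a44, which are female-biased in adult mice, and Cyp3a16, which is known from fetal mouse liver, each rose more than 3-fold. Cyp3a59 rose by less, and Cyp3a13, Cyp3a25 and Cyp3a57 did not pass.

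Cyp3a11 (ENSMUSG00000056035) was at 2164, 2586 and 3520.0 CPM in the lowest, median and highest young library, at 222, 458 and 1266 in vehicle and at 905, 1494 and 2010.3 in ouabain livers. All vehicle and all ouabain libraries lay below all young ones, and ouabain and vehicle overlapped only through vehicle replicates 1 and 5, the highest of their group. From young to vehicle livers the difference in Cyp3a11 was -2.10 on the log2 scale (SE 0.36, adjusted p = 0.000712 in edgeR). For ouabain against vehicle the log2 fold change was 1.24 (SE 0.35, adjusted p = 0.0748), which did not pass. Without vehicle replicate 5 it was 1.57 (adjusted p = 0.0224), and on all libraries it passed with DESeq2 (adjusted p = 0.022) and with voom quality weights (adjusted p = 0.0118). The ouabain difference did not pass in the fit of the 12 libraries compared alone, with a replicate block or without vehicle replicate 4. Between ouabain and young livers the log2 fold change was -0.86 (adjusted p = 0.225).

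Cyp3a41a (ENSMUSG00000075551) was at 241, 587 and 769 CPM in young libraries, 1401, 2642 and 2968 in vehicle and 703, 1551 and 2026 in ouabain livers, again as lowest, median and highest. Every vehicle library was above every young one, and of the ouabain libraries only replicate 6 lay within the young range. The log2 fold change was 2.14 with age (SE 0.27, adjusted p = 5.94e-05) and 1.42 between ouabain and young livers (SE 0.27, adjusted p = 0.0152). For ouabain against vehicle it was -0.71 (SE 0.26, adjusted p = 0.143). Cyp3a41b (ENSMUSG00000075552) had log2 fold changes of 2.18 and 1.45 against young livers (adjusted p = 4.48e-05 and 0.0141). These are not separate observations, since 93.7% of the 50-base stretches of the Cyp3a41a exons also occur in Cyp3a41b and the counts of Cyp3a41b were 92.9% to 99.4% of those of Cyp3a41a in the 18 libraries. How shared reads were counted was not stated, so levels of close paralogs are uncertain.

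Cyp3a44 (ENSMUSG00000054417) ran from 112 to 194 CPM in young livers (median 158), from 342 to 883 in vehicle (median 787) and from 218 to 595 in ouabain livers (median 444). Both old groups were wholly above the young one. Cyp3a44 differed by 2.18 (log2) with age (SE 0.24, adjusted p = 1.71e-05), 1.50 between ouabain and young livers (SE 0.24, adjusted p = 0.00662) and -0.68 for ouabain against vehicle (SE 0.23, adjusted p = 0.124). Cyp3a16 (ENSMUSG00000038656) ran from 61.6 to 117 CPM in young livers (median 89.3), from 153 to 406 in vehicle (median 363) and from 136 to 296 in ouabain livers (median 222). Here too both old groups lay above all young libraries. Cyp3a16 differed by 1.86 (log2) with age (SE 0.22, adjusted p = 2.92e-05), 1.30 between ouabain and young livers (SE 0.22, adjusted p = 0.00836) and -0.56 for ouabain against vehicle (SE 0.21, adjusted p = 0.154). Without vehicle replicate 5 the ouabain differences of Cyp3a16 (-0.71, adjusted p = 0.0387) and Cyp3a44 (-0.82, adjusted p = 0.0487) passed. On all libraries neither passed with DESeq2 or with voom quality weights.

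With age Cyp3a59 rose by 0.50 (log2, adjusted p = 0.047), a call that held in only 4 of the 18 fits that each left out 1 library. It shares 26.8% of its 50-base stretches with Cyp3a25. Cyp3a25 was at 449 ± 58.1 CPM in young, 496 ± 170.2 in vehicle and 396 ± 44.4 in ouabain livers, and Cyp3a13 at 276 ± 59.5, 267 ± 33.8 and 247 ± 25.7 (SD, n = 6 each). Neither passed in any of the 3 comparisons.

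**Figure D2:**
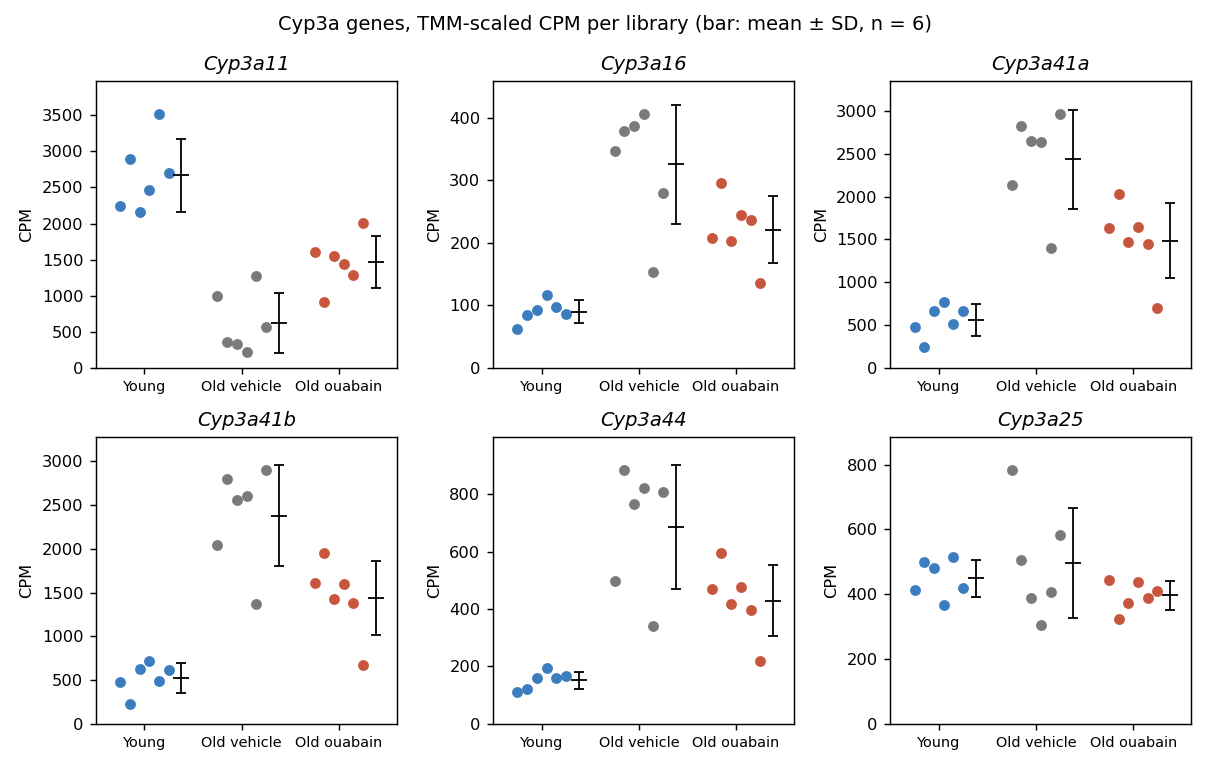
TMM-scaled CPM (y axis, linear) of 6 Cyp3a genes in each library of the 3 groups, with the mean and SD of 6 libraries as a bar beside the points. Cyp3a11 is highest in the young group (2164 to 3520.0 CPM), whereas Cyp3a16, Cyp3a41a, Cyp3a41b and Cyp3a44 are highest in the old vehicle group.

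Compared per kilobase of exon, Cyp3a11 was 1.30 to 4.86 times the level of Cyp3a41a in the young libraries, 0.0341 to 0.365 times in the vehicle libraries and 0.181 to 1.16 times in the ouabain libraries. Cyp3a11 thus exceeded Cyp3a41a in every young library and in no vehicle library. The size of these ratios depends on the exon lengths used, 5093 bases for Cyp3a11 and 2060 for Cyp3a41a. In CPM, without lengths, Cyp3a11 was likewise above Cyp3a41a in all young and below it in all vehicle libraries. In the ouabain group the ratio was highest in replicate 6 and lowest in replicate 2. The summed CPM of the 9 Cyp3a genes was 4824 ± 546 in young, 7371 ± 1094 in vehicle and 5798 ± 732 in ouabain livers. Without Cyp3a41b it was 4298 ± 514, 4991 ± 576 and 4359 ± 342 (SD, n = 6 each). This second sum holds the shared reads once only if they were counted for both genes. If each was counted for 1 gene, it leaves some of them out. On chromosome 5 the measured genes stand in the order Cyp3a13, Cyp3a57, Cyp3a16, Cyp3a41b, Cyp3a41a, Cyp3a44, Cyp3a11, Cyp3a25 and Cyp3a59 in the GENCODE annotation, so the 4 Cyp3a genes that rose most stand next to one another, with Cyp3a11 beside them.

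The Cyp2a genes include steroid and coumarin hydroxylases, and 3 of their 4 members rose with age. Cyp2a4 (ENSMUSG00000074254), a steroid hydroxylase that is female-biased, was at 565, 659 and 903 CPM in young libraries, 1172, 1712 and 2174 in vehicle and 989, 1516 and 2451 in ouabain livers. Both old groups were wholly above the young group and overlapped each other. Cyp2a4 differed by 1.32 (log2) with age (SE 0.19, adjusted p = 0.000124), 1.20 between ouabain and young livers (SE 0.19, adjusted p = 0.00608) and -0.12 for ouabain against vehicle (95% interval -0.49 to 0.25, adjusted p = 0.762). Cyp2a5 (ENSMUSG00000005547), the coumarin hydroxylase, was at 452, 669 and 909.6 CPM in young, 905, 1367 and 1663 in vehicle and 706, 1319 and 1588 in ouabain livers. The lowest library of each old group fell within the young range. Cyp2a5 differed by 0.91 (log2) with age (SE 0.20, adjusted p = 0.00425) and 0.87 between ouabain and young livers (SE 0.20, adjusted p = 0.0422), and the second of these calls held in 7 of 18 fits that left out 1 library, with an adjusted p of up to 0.131 over the alternatives. Cyp2a4 shares 36.1% of its 50-base stretches with Cyp2a5. With age Cyp2a22 rose by 0.76 (log2, adjusted p = 0.00135), with 153 ± 16.0 CPM in young and 259 ± 75.4 in vehicle livers. Cyp2a12, a bile acid hydroxylase in mouse liver, was at 556 ± 32.8 CPM in young, 575 ± 63.3 in vehicle and 575 ± 18.9 in ouabain livers, and the 95% interval of its difference with age was -0.11 to 0.20 (log2).

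The neighbouring Cyp2g1 (ENSMUSG00000049685), best known from olfactory tissue, was low in all livers and rose with age. It ran from 3.67 to 6.98 CPM in young (median 4.81), 10.7 to 31.4 in vehicle (median 15.7) and 9.46 to 15.6 in ouabain livers (median 12.1). No old library of either group reached down to the young range. The log2 fold change was 1.81 with age (SE 0.24, adjusted p = 5.88e-05), 1.27 between ouabain and young livers (SE 0.25, adjusted p = 0.016) and -0.54 for ouabain against vehicle (adjusted p = 0.184). The call between ouabain and young livers ended without ouabain replicate 2 or young replicate 5 (adjusted p of up to 0.0536).

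The Cyp2c genes oxidise fatty acids, retinoids and drugs, and they split: with age 2 of 13 rose, 5 fell and 6 did not pass. Cyp2c38 (ENSMUSG00000032808), an arachidonic acid oxygenase, was at 33.3, 39.0 and 42.6 CPM in young libraries, 74.6, 82.9 and 109 in vehicle and 46.6, 61.4 and 65.9 in ouabain livers. The groups formed 3 separate ranges, with ouabain between the others. It rose with age by 1.14 (log2, SE 0.10, adjusted p = 4.13e-07), was lower with ouabain than with vehicle by -0.55 (SE 0.10, adjusted p = 0.00918) and was higher in ouabain than in young livers by 0.60 (SE 0.10, adjusted p = 0.0072). Cyp2c39 (ENSMUSG00000025003), a retinoic acid hydroxylase that is its neighbour on chromosome 19, was at 5.95, 8.42 and 9.64 CPM in young, 11.7, 20.1 and 23.9 in vehicle and 9.97, 12.6 and 16.0 in ouabain livers. Vehicle lay above young throughout, and vehicle replicate 4 was the only vehicle library within the ouabain range. Cyp2c39 differed by 1.25 (log2) with age (SE 0.16, adjusted p = 3.03e-05) and -0.61 for ouabain against vehicle (SE 0.16, adjusted p = 0.0458). The second call was lost without any one of ouabain replicates 2, 3, 4 and 6, vehicle replicates 1, 2 and 3 or young replicates 5 and 6 (adjusted p of up to 0.105). It was also lost in the fit of the 12 libraries compared alone (adjusted p = 0.0688 in edgeR) and with a replicate block (adjusted p = 0.0795).

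Cyp2c54 and Cyp2c50, which form epoxides of linoleic and arachidonic acid, lie side by side and were lower in old vehicle livers. Cyp2c54 (ENSMUSG00000067225) was at 266, 343 and 436 CPM in young libraries, 22.1, 71.8 and 180.0 in vehicle and 119.9, 191 and 239.5 in ouabain livers. Vehicle replicate 5 was the only vehicle library above the lowest ouabain library, and neither old group overlapped the young one. Cyp2c54 differed by -2.07 (log2) with age (SE 0.35, adjusted p = 0.000736), 1.20 for ouabain against vehicle (SE 0.35, adjusted p = 0.0801) and -0.87 between ouabain and young livers (adjusted p = 0.217). Cyp2c50 (ENSMUSG00000054827) was at 536, 729 and 865 CPM in young, 59.5, 221 and 538 in vehicle and 258, 456 and 507 in ouabain livers. Vehicle replicate 5 again stood above its group, inside the young range. Its log2 fold change was -1.55 with age (SE 0.34, adjusted p = 0.00465) and 0.79 for ouabain against vehicle (adjusted p = 0.203). Without vehicle replicate 5 the ouabain differences of Cyp2c54 (1.58, adjusted p = 0.0148) and Cyp2c50 (1.18, adjusted p = 0.0406) passed. On all libraries that of Cyp2c54 also passed with DESeq2 (adjusted p = 0.0227) and with voom quality weights (adjusted p = 0.0184). Neither gene passed for ouabain in the fit of the 12 libraries compared alone, with a replicate block or without vehicle replicate 4. Cyp2c54 shares 25.7% of its 50-base stretches with other genes.

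Cyp2c23 (ENSMUSG00000025197), an arachidonic acid epoxygenase also named Cyp2c44, fell with age. It was at 241, 333 and 392 CPM in young libraries, 136, 188 and 206 in vehicle and 198, 245 and 312 in ouabain livers. Vehicle and young did not overlap, and vehicle replicate 5 was the only vehicle library above the lowest ouabain one. In log2 terms Cyp2c23 differed by -0.84 with age (SE 0.13, adjusted p = 0.000155) and 0.45 for ouabain against vehicle (SE 0.13, adjusted p = 0.069). The ouabain difference passed with DESeq2 (adjusted p = 0.0289) and with voom quality weights (adjusted p = 0.038). It did not pass in the fit of the 12 libraries compared alone, with a replicate block or without vehicle replicate 4 or 5. Cyp2c40, an arachidonic acid hydroxylase that is female-biased, and Cyp2c68 fell with age by smaller amounts, with log2 fold changes of -0.52 (adjusted p = 0.021) and -0.38 (adjusted p = 0.0146). Cyp2c40 shares 60.3% of its 50-base stretches with other genes, and its call ended without vehicle replicate 5 or young replicate 5. Both calls were lost in the fit of the 12 libraries compared alone, with adjusted p = 0.0613 for Cyp2c40 and 0.0522 for Cyp2c68. The CAR-induced epoxygenase Cyp2c29 was at 1014 ± 138 CPM in young, 1081 ± 264 in vehicle and 923 ± 105 in ouabain livers (SD, n = 6 each) and passed in no comparison. The summed CPM of the 13 genes was 5985 ± 827 in young, 5142 ± 668 in vehicle and 5256 ± 259 in ouabain livers.

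The male-biased pair, Cyp2d9 and Cyp2u1, fell with age and was higher with ouabain than with vehicle. Cyp2d9 (ENSMUSG00000068086), the testosterone hydroxylase of male mouse liver, was at 67.8, 109 and 177 CPM in young libraries, 25.1, 28.8 and 31.9 in vehicle and 46.4, 74.6 and 102 in ouabain livers. The vehicle libraries formed a tight group below every young and every ouabain library. Cyp2d9 differed by -1.96 (log2) with age (SE 0.22, adjusted p = 1.71e-05), 1.37 for ouabain against vehicle (SE 0.22, adjusted p = 0.00462) and -0.60 between ouabain and young livers (adjusted p = 0.171). Cyp2u1 (ENSMUSG00000027983), a fatty acid hydroxylase, was low, at 2.94, 5.46 and 6.30 CPM in young, 0.410, 0.887 and 1.51 in vehicle and 2.05, 3.23 and 6.50 in ouabain livers. Its vehicle libraries held 4 to 15 counts each, those of ouabain 22 to 33, and were again all below the others. With age Cyp2u1 fell by 2.46 on the log2 scale (SE 0.29, adjusted p = 1.11e-05), and it was higher with ouabain than with vehicle by 1.92 (SE 0.30, adjusted p = 0.00405). Cyp2d9 shares 21.8% of its 50-base stretches with other genes, and Cyp2u1 12.3%, of which most, 9.55%, lie in the overlapping gene 4930534D22Rik. Both genes, and Cyp2c38, kept their ouabain call in all 18 fits that left out 1 library and in every other setting tried. These 3 are the members whose ouabain and vehicle libraries did not overlap.

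Cyp2d11 and Cyp2f2 passed in the same comparisons by smaller margins. Cyp2d11 (ENSMUSG00000068085), which lies next to Cyp2d9 and shares 37.2% of its 50-base stretches with other genes, was at 63.9, 72.3 and 90.6 CPM in young, 41.1, 47.8 and 52.5 in vehicle and 51.9, 61.3 and 76.0 in ouabain livers. Ouabain and vehicle met at the lowest ouabain library, replicate 1. Cyp2d11 differed by -0.64 (log2) with age (SE 0.10, adjusted p = 0.00023) and 0.42 for ouabain against vehicle (SE 0.10, adjusted p = 0.0348). Cyp2f2 (ENSMUSG00000052974), which activates naphthalene and is periportal in mouse liver, was at 681, 846 and 1098 CPM in young, 204, 362 and 585 in vehicle and 579, 632 and 767 in ouabain livers. Vehicle lay below young in all libraries, and vehicle replicate 4 alone reached the ouabain range. Cyp2f2 differed by -1.16 (log2) with age (SE 0.19, adjusted p = 0.000326) and 0.78 for ouabain against vehicle (SE 0.19, adjusted p = 0.0369). In the fit of the 12 libraries compared alone, the ouabain call of Cyp2f2 was lost (adjusted p = 0.0726 in edgeR). The ouabain call of Cyp2d11 ended without any one of ouabain replicates 3, 4, 5 and 6 or vehicle replicates 1, 3 and 4, and that of Cyp2f2 without any one of ouabain replicates 3, 4, 5 and 6, vehicle replicates 3 and 5 or young replicate 3 (adjusted p of Cyp2f2 up to 0.0984). Among the other Cyp2d genes, Cyp2d22 fell with age by 0.27 (log2, adjusted p = 0.0371, held in 10 of 18 such fits), and Cyp2d26, the most abundant of them per kilobase, was at 741 ± 33.5, 761 ± 75.3 and 785 ± 79.8 CPM in young, vehicle and ouabain livers and passed in no comparison.

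**Figure D3:**
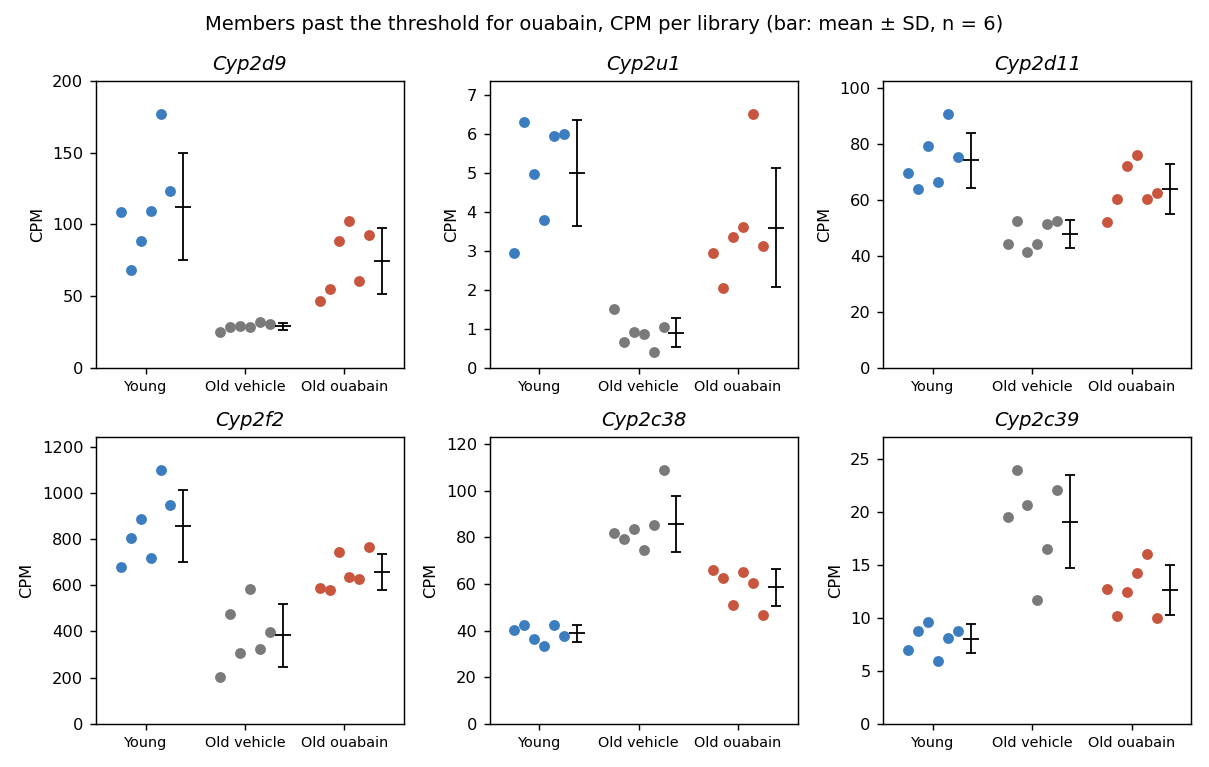
TMM-scaled CPM (y axis, linear) of the 6 members that passed between old ouabain and old vehicle livers, in each library of the 3 groups, with the mean and SD of 6 libraries as a bar. The vehicle points of Cyp2d9 (25.1 to 31.9 CPM) and Cyp2u1 (0.410 to 1.51 CPM) lie below all other points, and those of Cyp2c38 (74.6 to 109 CPM) above all others.

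The AhR-induced genes of family 1 did not move together with age: Cyp1b1 rose, and Cyp1a1 and Cyp1a2 fell. Cyp1a2 (ENSMUSG00000032310), a pericentral enzyme of caffeine and arylamine metabolism, was at 325, 458 and 577 CPM in young, 178, 303 and 382 in vehicle and 276, 411 and 485 in ouabain livers. All groups overlapped. Its difference with age was -0.63 (SE 0.19, adjusted p = 0.0242), a call that ended without vehicle replicate 1 or young replicate 3, 5 or 6 (adjusted p of up to 0.0621). Cyp1a1 (ENSMUSG00000032315), the hydrocarbon hydroxylase, ran from 3.23 to 7.36 CPM in young (median 5.99), 2.21 to 3.69 in vehicle (median 3.41) and 2.38 to 6.39 in ouabain livers (median 4.96). Its log2 fold change with age was -0.91 (SE 0.22, adjusted p = 0.00614). Cyp1b1, which is mostly made outside hepatocytes, was near the limit of detection, with 1 to 9 counts in a young library and 10 to 48 in a vehicle library. It differed by 1.76 (log2) with age (SE 0.41, adjusted p = 0.00444) and -1.24 for ouabain against vehicle (adjusted p = 0.0957). Of 2 tested AhR targets outside the P450s, Nqo1 and Tiparp, both rose with age (0.93 and 0.62, adjusted p = 0.000342 and 0.00546), in the direction of Cyp1b1 and not of Cyp1a1 or Cyp1a2.

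Cyp2e1, the ethanol- and acetaminophen-oxidising enzyme of the pericentral zone, was the most abundant member per kilobase of exon in all 3 groups. It was at 3586, 4467 and 4789 CPM in young, 1430.2, 3187 and 4403 in vehicle and 3092, 3749.5 and 4534 in ouabain livers. Vehicle replicates 4, 1 and 2 were below all young and ouabain libraries, and the other vehicle libraries lay within the ouabain range. The log2 fold change with age was -0.47 (SE 0.20, adjusted p = 0.103), and without vehicle replicate 6 Cyp2e1 fell by 0.59 (adjusted p = 0.0357). Of the summed level of all members per kilobase, Cyp2e1 made up 21.9% ± 2.65 in young, 13.7% ± 4.89 in vehicle and 17.2% ± 2.31 in ouabain livers. Cyp3a41a made up 2.91% ± 0.896, 11.3% ± 2.36 and 7.17% ± 1.92, Cyp2a4 4.30% ± 0.784, 9.51% ± 2.85 and 8.95% ± 2.42, and Cyp3a11 5.73% ± 1.02, 1.20% ± 0.871 and 2.93% ± 0.903. With Cyp3a41a and Cyp3a41b ranked separately, second place per kilobase was thus held by Cyp3a11 in young, Cyp3a41a in vehicle and Cyp2a4 in ouabain livers. Cyp3a41a and Cyp3a41b were at 1183 and 1153 CPM per kilobase in vehicle livers, beside 1444 for Cyp2e1. In ouabain livers they were at 722 and 697, beside 901 for Cyp2a4. In young livers they were at 269 and 255, beside 524 for Cyp3a11. If shared reads were divided between them, the pair together would rank above Cyp2e1 in vehicle and above Cyp2a4 in ouabain livers. The summed level holds both Cyp3a41a and Cyp3a41b, which are not separate observations. Leaving out Cyp3a41b would raise every other share, most in vehicle livers, where Cyp3a41b was highest. Cyp3a11 was divided by 5093 bases, the length of all its annotated exons together, and Cyp3a41a by 2060. The longer divisor lowers the share and rank of Cyp3a11.

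**Figure D4:**
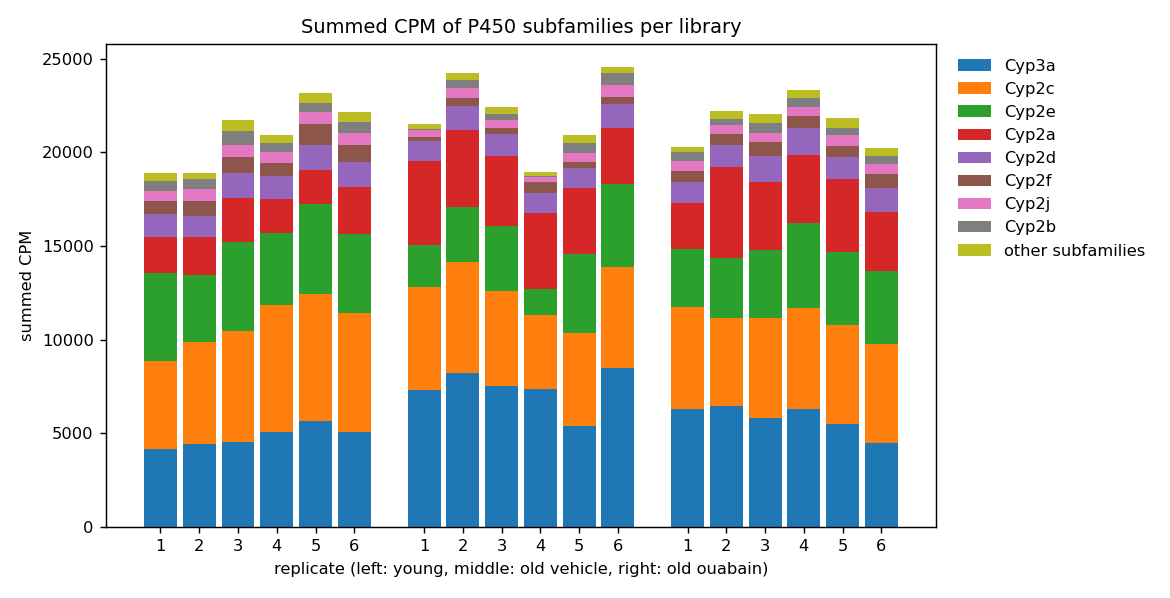
Summed TMM-scaled CPM (y axis, linear from 0) of the P450 subfamilies in each library, stacked, with replicates of the young, old vehicle and old ouabain groups from left to right. The Cyp3a part is 4172 to 5660.4 CPM in young and 5369 to 8500.2 CPM in vehicle libraries, whereas the height of the whole stack is 18885 to 23188 and 18937 to 24569 CPM.

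Over all 51 members the summed CPM was 20978 ± 1762 in young, 22105 ± 2127 in vehicle and 21671 ± 1202 in ouabain livers, and without Cyp3a41b 20452 ± 1675, 19724 ± 1919 and 20233 ± 1031 (SD, n = 6 each), differences smaller than the spread. By subfamily, the vehicle mean was 3.52 times the young mean for Cyp2g, 3.48 for Cyp1b, 1.84 for Cyp2a, 1.53 for Cyp3a, 0.859 for Cyp2c, 0.900 for Cyp2d, 0.768 for Cyp2j, 0.721 for Cyp2e, 0.642 for Cyp1a, 0.593 for Cyp2b, 0.447 for Cyp2f and 0.180 for Cyp2u. The libraries of the 2 groups did not overlap for Cyp2a, Cyp2f, Cyp2g and Cyp2u. The Cyp3a ratios here and below count both Cyp3a41a and Cyp3a41b. Without Cyp3a41b the Cyp3a means lay closer together, at 4298 CPM in young, 4991 in vehicle and 4359 in ouabain livers. The ouabain mean was 4.00 times the vehicle mean for Cyp2u, where the groups did not overlap, 1.72 for Cyp2f, 1.40 for Cyp1a, 1.28 for Cyp2b, 1.19 for Cyp2e, 0.787 for Cyp3a, 0.691 for Cyp2g and 0.403 for Cyp1b, and 0.944 to 1.12 for Cyp2a, Cyp2c, Cyp2d and Cyp2j. Against the young mean, the ouabain mean was 2.43 times for Cyp2g, with all libraries higher, 0.858 for Cyp2j, with all libraries lower, 1.74 for Cyp2a, 1.40 for Cyp1b and 1.20 for Cyp3a, and 0.720 to 0.996 for Cyp1a, Cyp2b, Cyp2c, Cyp2d, Cyp2e, Cyp2f and Cyp2u. The Cyp2j genes, epoxygenases of arachidonic acid, had 2 members that fell with age, Cyp2j5 (-0.38, adjusted p = 0.0423, held in 8 of 18 fits that left out 1 library) and Cyp2j6 (-0.37, adjusted p = 0.0132). Cyp2r1, the vitamin D 25-hydroxylase, was at 13.8 ± 2.47, 13.7 ± 2.04 and 12.9 ± 1.96 CPM in young, vehicle and ouabain livers, and Cyp2s1 at 1.17 ± 0.814, 1.62 ± 1.16 and 1.40 ± 0.459. Neither passed in any comparison.

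Members varied more among vehicle livers than genes in general did. The median SD of log2 CPM over the tested members was 0.29 in young, 0.43 in vehicle and 0.26 in ouabain livers, against 0.24, 0.23 and 0.21 over all genes tested. The vehicle group had the largest of the 3 SDs for 30 of the 47 members, the young group for 8 and the ouabain group for 9, where these groups hold it for 37.6%, 40% and 22.4% of all genes tested. Cyp2b9, a female-biased Cyp2b, was at 309, 359 and 445 CPM in young, 5.85, 278 and 501 in vehicle and 173, 312 and 344 in ouabain livers. Vehicle replicates 4 and 1 were far below all other libraries, and vehicle replicate 6 was above them. Cyp2b13, likewise female-biased, was at 106, 177 and 255 CPM in young, 4.32, 39.9 and 173 in vehicle and 66.7, 115 and 136 in ouabain livers. The same replicates 4 and 1 were lowest. Neither gene passed with age (Cyp2b9 -0.60, SE 0.60, adjusted p = 0.531, and Cyp2b13 -1.43, SE 0.61, adjusted p = 0.118). Of the 47 tested members, 20 had their lowest vehicle value in replicate 4, among them Cyp3a11, Cyp2c50, Cyp2c54 and Cyp2e1. This count was like that of young replicate 1 in its group (20) and of ouabain replicate 2 in its own (19). The highest value of the group was in vehicle replicate 4 for 6 members, in young replicate 1 for 1 and in ouabain replicate 2 for 10. Vehicle replicate 4 and ouabain replicate 2 also had the highest sums of 7 macrophage markers in their groups. Among young livers this sum was highest in replicate 4 and not in replicate 1. The sum of 9 hepatocyte markers was also highest in replicate 4 among vehicle livers (142483 CPM) and among young livers (155133 CPM). Among ouabain livers it was highest in replicate 1 (131106 CPM). A link between these sums and the P450 values was not tested.

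**Figure D5:**
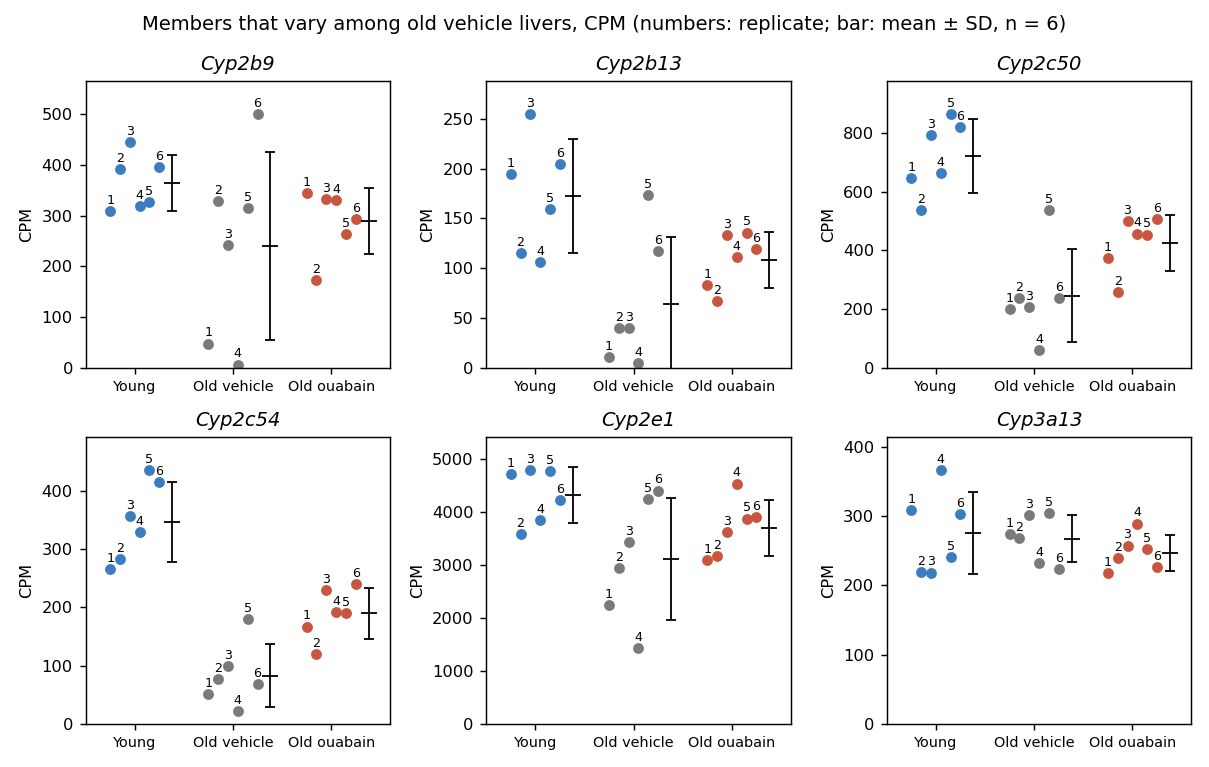
TMM-scaled CPM (y axis, linear) of 6 members in each library, labelled with the replicate number, with the mean and SD of 6 libraries as a bar that stops at 0. For Cyp2b9 the vehicle points run from 5.85 to 501 CPM and the young ones from 309 to 445 CPM, whereas for Cyp3a13 the groups cover about the same range.

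By function, of 11 P450s listed as female-biased, 6 rose and 1 fell with age (median log2 fold change 1.25), 0 rose and 1 fell with ouabain against vehicle (median -0.12), and 5 rose between ouabain and young livers (median 0.64). With the Cyp3a41 pair taken once, 5 of 10 rose and 1 fell with age (median 0.78), and 4 rose between ouabain and young livers (median 0.50). Over all genes tested, 10.9% rose and 8.32% fell with age, 1.84% changed with ouabain against vehicle and 0.738% rose between ouabain and young livers. Of 8 pericentral P450s, 1 rose and 4 fell with age (median -0.55), and with ouabain 0 passed (median 0.37). Of 7 tested pericentral markers that are not P450s, 0 passed with age (median 0.15). Of 6 CAR- or PXR-induced P450s, Cyp3a11 fell with age and the other 5 did not pass (median -0.01). The median over all genes was -0.01 in each comparison. The pericentral and the CAR- or PXR-induced list share Cyp2c29, Cyp2c37 and Cyp3a11.

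Genes whose products act with the P450s, or on their genes, were looked up from fixed lists. Of 6 redox partners, among them the oxidoreductase Por and cytochrome b5 (Cyb5a), 0 passed in any comparison. Of 12 genes of heme synthesis and breakdown 2 changed with age, a share below the 19.2% of all genes: Cpox, of heme synthesis, fell (-0.59, adjusted p = 0.000761) and the heme oxygenase Hmox1 rose (1.42, adjusted p = 0.00623), and 0 passed with ouabain. Of 21 tested receptors and transcription factors of P450 genes, 6 fell and 0 rose with age, among them Foxa1 (-0.96, adjusted p = 0.000521), Ppara (-0.67), Cebpa (-0.55) and Hnf4a (-0.38). Foxa1, a pioneer factor of hepatocytes, went from 8.74 ± 2.16 CPM in young to 4.50 ± 0.954 in vehicle livers and was at 7.77 ± 1.08 in ouabain livers (SD, n = 6 each), and was the only one of the 21 to pass with ouabain against vehicle (0.79, adjusted p = 0.0225). Its vehicle libraries lay below all others. The receptors Nr1i2 (PXR) and Nr1i3 (CAR) did not pass with age (-0.20 and -0.41, adjusted p = 0.133 and 0.0777). Of 10 regulators of growth hormone signalling and sex bias, 2 rose and 1 fell with age (median log2 fold change 0.01). Over all genes tested, 10.9% rose and 8.32% fell. Cux2, a female-biased factor that represses male-biased genes in mouse liver, was 1 of the 2 that rose. It went from 15.1 ± 8.39 CPM in young to 53.9 ± 10.9 in vehicle livers (1.84, adjusted p = 0.00101). In ouabain livers it was at 43.4 ± 10.9 CPM (1.53 against young, adjusted p = 0.0325). Bcl6, a male-biased repressor of female-biased genes, fell from 27.5 ± 16.7 to 8.22 ± 1.72 CPM (-1.73, adjusted p = 0.0111). For ouabain against vehicle, Cux2 was at -0.31 (adjusted p = 0.606) and Bcl6 at 0.84 (adjusted p = 0.304).

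Markers of other cells moved in the same comparisons. All 7 macrophage markers rose with age, and Itgax, Ccr2 and Ms4a7 fell with ouabain against vehicle. None was at 0 in any group, and their sum was 188 to 273 CPM in young, 318 to 1424 in vehicle and 261 to 703 in ouabain livers. Lymphocyte markers rose with age for 3 of 4 tested, and Ptprc fell with ouabain, with sums of 9.27 to 13.3, 21.1 to 48.9 and 13.7 to 39.9 CPM. Of the 9 hepatocyte markers, Asgr1 and Tat rose and Fgb, Serpina1a and Ttr fell with age, and 0 passed with ouabain. Over all genes tested, 10.9% rose and 8.32% fell with age, and 0.991% rose and 0.851% fell with ouabain against vehicle. Of 6 acute phase genes 0 passed in any comparison. The part of these cells in the P450 differences was not tested.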

How the data were processed

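RNA from livers of 18 mice was sequenced, 1 library for each title, in 3 groups of 6 taken from the titles. Nothing in the labels says how the animals were housed or which libraries were prepared together, so p-values measure the spread between these samples. The authors deposited raw read counts per Ensembl gene, not normalized. TopHat2 2.0.11, featureCounts and the build mm9 are named in the submitters' processing notes. The sources used here do not give the annotation, the strand setting or how reads that fit several genes were counted, so close paralogs and antisense or overlapping genes are uncertain.

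Counts as deposited were analysed with edgeR 4.0.16 in R 4.3.3, with TMM scaling, edgeR's filter (minimum count 10) and a robust quasi-likelihood fit of all 18 libraries, two-sided, with Benjamini-Hochberg adjustment over 14226 genes and a threshold of 0.05. The fit was checked on simulated counts. Standard errors are the fold change over the square root of F. For the spread, log2 CPM had a prior count of 2. Pairs of libraries within groups differed by a chi-square of 5.31 to 58.1 a gene (1 under sampling noise alone), and each was counted once. The floor, 3 counts, is 0.274 to 0.696 CPM by library and covers counting error only. Symbols were found for 32897 of the 37620 identifiers. Gene order, exon lengths and the 50-base stretches shared between genes came from GENCODE M21 (GRCm38), another build than the counts used, and promoters from RefSeq.

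The members and lists were chosen with earlier results of these data known. Every member could be named. Full values were given for passing members whose log2 CPM averaged 2 or more, up to the 10 largest changes in each direction, and for the most abundant of a subfamily (Cyp2u1 among them). Full values of Cyp2b13 were added after they were seen. The other genes named come from the lists. Alternatives were DESeq2 1.42.0, edgeR without a filter, with a filter at 1 CPM in 6 libraries or with relative log expression scaling, voom (limma 3.58.1), voom with quality weights, a fit of the 12 libraries compared alone, a replicate block and leaving out each library. Leaving out old vehicle replicate 4 with old ouabain replicate 5 was chosen after seeing the data.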

Additional observations from a re-analysis of the deposited data

Results flagged for a closer look

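In 183 sets of 6 libraries (a tested member or a subfamily sum in 1 group), 18 held a library whose gap to the nearest other, on the log2 scale with 0.01 CPM added, exceeded Dixon's critical value of 0.625 of the range. Chance flags about 1 in 20 sets. The sets are not independent, since a subfamily of 1 gene repeats that gene and other sums hold the values of their members. The number of flags therefore cannot be set against that rate. Values include the 0.01 CPM.

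In old vehicle livers, the summed Cyp3a level of replicate 5 was 5369 CPM against 7321 to 8500.2 in the others. Replicate 4 was low for Cyp2c68 (337 against 439 to 504 CPM) and Cyp2d22 (161 against 205 to 234 CPM). Replicate 3 was low for Cyp2c55 (0.820 against at least 4.33 CPM), and replicate 6 was high for Cyp2c38 (109 against 74.6 to 85.1 CPM).

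In old ouabain livers, replicate 6 was low for Cyp3a41a (703 against 1442 to 2026 CPM) and Cyp3a41b (674 against 1379.7 to 1948 CPM), which share most of their 50-base stretches. Replicate 1 was low for Cyp1a2 (276 against 396 to 485 CPM), Cyp1a1 (2.39 against 4.69 to 6.40 CPM) and their sum (279 against 401 to 491 CPM). Replicate 2 was low for the sums of Cyp2b (296 against 419 to 494 CPM) and Cyp2c (4746 against 5250.3 to 5435 CPM).

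In young livers, replicate 2 was low for Cyp3a41b (231 against 472 to 715 CPM) and Cyp2d40 (56.2 against 85.9 to 102 CPM) and high for Cyp2c55 (20.6 against 5.08 to 7.68 CPM). Replicate 1 was low for Cyp1a1 (3.24 against 5.62 to 7.37 CPM). Replicate 4 was low for Cyp1b1, which is also the Cyp1b sum (0.124 against 0.597 to 0.983 CPM, on 1 count).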

How the results depend on the processing

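The alternatives were run on 33 members in 3 comparisons, those that passed or are the most abundant of a subfamily. Over these 99 results and 2671 fits, 2546 kept their side of the threshold, 99 lost and 26 gained the call. No difference that had passed changed direction, 6 that had not passed changed sign in some fit, and the 42 subfamily ratios moved by less than the spread in 840 fits. With old vehicle against young, 21 of 27 members were called in every setting, with ouabain against vehicle 3 of 6 and between ouabain and young 4 of 8. Leaving out 1 library at a time, the members called numbered 3 to 10 for ouabain against vehicle, 22 to 29 with age and 6 to 9 between ouabain and young livers. The 3 arose without ouabain replicate 3, 4 or 6 or vehicle replicate 3, and the 10 without vehicle replicate 5. All genes called in the same fits numbered 69 to 642, 2085 to 3061 and 51 to 612. For ouabain against vehicle, 262 genes became 601 with DESeq2, 949 with quality weights and 85 without vehicle replicate 4 and ouabain replicate 5 together. Between ouabain and young livers, 160 genes became 442 with DESeq2, 518 with quality weights, 333 with only the 12 libraries compared (13 members, 10 up and 3 down) and 103 without the same 2 libraries. The cause was not tested. The deviations of same-numbered libraries had correlations of -0.14 to 0.16, which cannot show whether the numbers pair animals. The labels do not say that they do. With the replicate block, 71 genes and 5 members were called between ouabain and young livers (Cyp2a5, Cyp3a41a and Cyp3a41b not, with adjusted p = 0.0885, 0.0526 and 0.0526), 241 and 6 for ouabain against vehicle and 2522 and 26 with age. Depth limits Cyp2u1 and Cyp1b1, which had 4 to 15 and 10 to 48 counts in a vehicle library.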

Other observations

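Of the members too low to test, Cyp2j8 had 38, 27 and 22 counts over the young, vehicle and ouabain groups, Cyp2j7 16, 19 and 18, Cyp2b19 15, 13 and 11, and Cyp2j13 8, 6 and 6. Rows with pseudogene names, which are no members, held up to 6043 counts over the 18 libraries (Cyp2d37-ps), beside 3362 for Cyp2d41-ps and 1033 for Cyp2c53-ps.

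Cyp3a11, Cyp2c50 and Cyp2c54 were lower in all 6 ouabain than in all 6 young libraries, with log2 fold changes of -0.86, -0.76 and -0.87 that did not pass in the fit of 18 libraries (adjusted p = 0.225, 0.269 and 0.217, edgeR) and passed in the fit of the 12 libraries compared (adjusted p = 0.0134, 0.018 and 0.0125).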
